A study of Mus musculus with 6 samples.

Results

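The genes described here are 9 genes of sterol efflux and of the liver X receptors (LXR): the exporters Abcg5, Abcg8, Abca1 and Abcg1, the receptors Nr1h3 (LXRalpha) and Nr1h2 (LXRbeta), the LXR targets Mylip and Lpcat3, and Scarb1, a receptor for high-density lipoprotein (HDL). They were taken by symbol from the deposited table, where each had 1 row among 55450 genes, and all 9 were among the 14539 genes that passed the filter on low counts. The question was whether Abcg5 and Abcg8 rose alone in LKB1 knockout liver or together with other LXR targets. RNA came from the left liver lobe of 6 mice of the strain labelled C57BL/J, aged 10 weeks, with 1 library per mouse. The knockout (KO) group was 3 LKB1 fl/fl mice and the wild-type (WT) group was 3 mice with the genotype labelled normal, and all 6 mice had received AAV8 Cre at 6 weeks of age, 4 weeks before collection. AAV8 is a viral serotype used to reach hepatocytes, and the promoter that drives Cre is not given in the sources used here. A whole lobe also holds endothelial, stellate, bile duct and immune cells, so fewer cells of a type and less RNA per cell cannot be told apart.

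Sterol balance in the liver is kept by uptake, synthesis and export. LXRalpha and LXRbeta are nuclear receptors that bind DNA with a retinoid X receptor and are activated by oxysterols and by some intermediates of cholesterol synthesis. Abcg5 and Abcg8 are obligate partners that move cholesterol and plant sterols across the canalicular membrane of hepatocytes into bile. Abca1 loads cholesterol onto apolipoprotein A-I, Abcg1 passes it to larger HDL particles, Mylip is a ubiquitin ligase and Lpcat3 inserts polyunsaturated chains into phospholipids, and all of these are known LXR targets. Scarb1 takes up cholesteryl ester from HDL.

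Abcg5 (ENSMUSG00000040505.13, chromosome 17, 84658234 to 84683011, minus strand) and Abcg8 (ENSMUSG00000024254.15, chromosome 17, 84676302 to 84700333, plus strand) lie head to head on GRCm38. Their main transcripts start 110 nt apart on opposite strands. The stretch around both starts is shown because Abcg5 and Abcg8 were both called higher. It is the RefSeq promoter window of Abcg8 on GRCm38.p6, chr17:84682871-84683170, plus strand, which runs from 250 bases before the Abcg8 start to 50 bases after it and shares 209 bases with the Abcg5 window. Capitals mark AGATAA, the core motif of GATA factors, or its reverse complement. The Abca1 window (chr4:53159846-53160145, minus strand) is set beside it because Abca1 is a textbook LXR target. Capitals there mark a DR4-type LXR element, searched as 2 units of NGGTCA or NGGTTA separated by 4 bases.
Abcg8: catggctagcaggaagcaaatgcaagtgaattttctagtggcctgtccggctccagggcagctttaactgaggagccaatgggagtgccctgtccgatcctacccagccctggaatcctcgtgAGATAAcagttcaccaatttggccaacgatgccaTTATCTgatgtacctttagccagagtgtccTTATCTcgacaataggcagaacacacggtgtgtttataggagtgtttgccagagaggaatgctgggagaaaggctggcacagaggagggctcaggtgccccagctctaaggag
Abca1: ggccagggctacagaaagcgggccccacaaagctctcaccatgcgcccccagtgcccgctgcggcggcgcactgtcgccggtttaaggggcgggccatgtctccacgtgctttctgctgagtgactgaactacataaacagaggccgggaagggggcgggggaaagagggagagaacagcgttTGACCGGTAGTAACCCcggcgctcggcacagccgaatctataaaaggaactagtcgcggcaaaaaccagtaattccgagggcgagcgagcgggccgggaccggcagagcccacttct

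The motifs were chosen after the expression values were known, and both strands were searched in each case. Of the 9 genes, 7 had a window in the RefSeq table, and Abcg1 and Scarb1 had none. AGATAA occurred 3 times in the Abcg8 window, 127, 93 and 63 bases before the Abcg8 start, and the same 3 matches lie in the Abcg5 window. A second Abcg8 window, at the annotated start 84676302, held no match. At least 1 match was found in 11.2% of the 32851 windows of this length, and at least 3 in 35 windows, or 0.107%. Binding of GATA factors to these matches was not tested. The DR4-type element was found once in the Abca1 window, 67 bases before the start, and in 0.213% of all windows. It was not found in the Abcg5 or Abcg8 window, nor in those of Nr1h2, Nr1h3, Mylip and Lpcat3, which says only that these letters are not in these windows. The strict form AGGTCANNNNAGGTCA was in 0.0152% of all windows, and its unit AGGTCA, part of the strict form, was in 16.3%. Neither was in a window of these genes. The FoxO motif TGTTTAC, in 3.65% of all windows, was also in none of them, while CACGTG, in 7.15%, was in the Abca1 window only.

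Libraries held 47659122 to 56147667 counts in all. Stk11, the gene of LKB1, was at 22.1, 14.4 and 11.4 CPM (counts scaled to a common library size) in KO 1 to 3 and at 66.1, 64.2 and 69.7 CPM in WT 1 to 3, so every KO library lay below every WT library (log2 fold change -2.06 ± 0.247, SE; edgeR adjusted p = 0.0167). Replicate 1 of each group had Xist counts and almost none of 4 Y-linked genes, and replicates 2 and 3 the reverse, although the labels give no sex. Differences are therefore also given for the 4 Y-positive libraries (2 KO, 2 WT) and for the Xist-positive pair, where 1 KO library faces 1 WT library without replication. Of the 14539 genes tested, 490, or 3.37%, passed edgeR's quasi-likelihood test at an adjusted p below 0.05, the threshold used throughout. The groups did not overlap for 32.4% of the genes tested.

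Abcg5 and Abcg8 were the 2 of these 9 genes that passed the threshold, and both were higher in KO. The background share of genes called higher was 2.15%. None of the 9 was called lower, against a background of 1.22%, although DESeq2, which called 14.6% of its genes, called Abca1 and Lpcat3 lower and limma voom called neither. An unadjusted p-value under 0.05 was found for 5 of the 9 genes, against 26.3% of all genes tested. The KO and WT libraries did not overlap for 5 of the 9 genes, 3 of them higher (Abcg5, Abcg8 and Nr1h2) and 2 lower (Abca1 and Lpcat3). The background shares were 16.9% and 15.5%. The median log2 fold change of the 9 genes was 0.07, and that of the 7 other than Abcg5 and Abcg8 was -0.07, beside 0.01 for all genes tested.

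**Figure D1:**
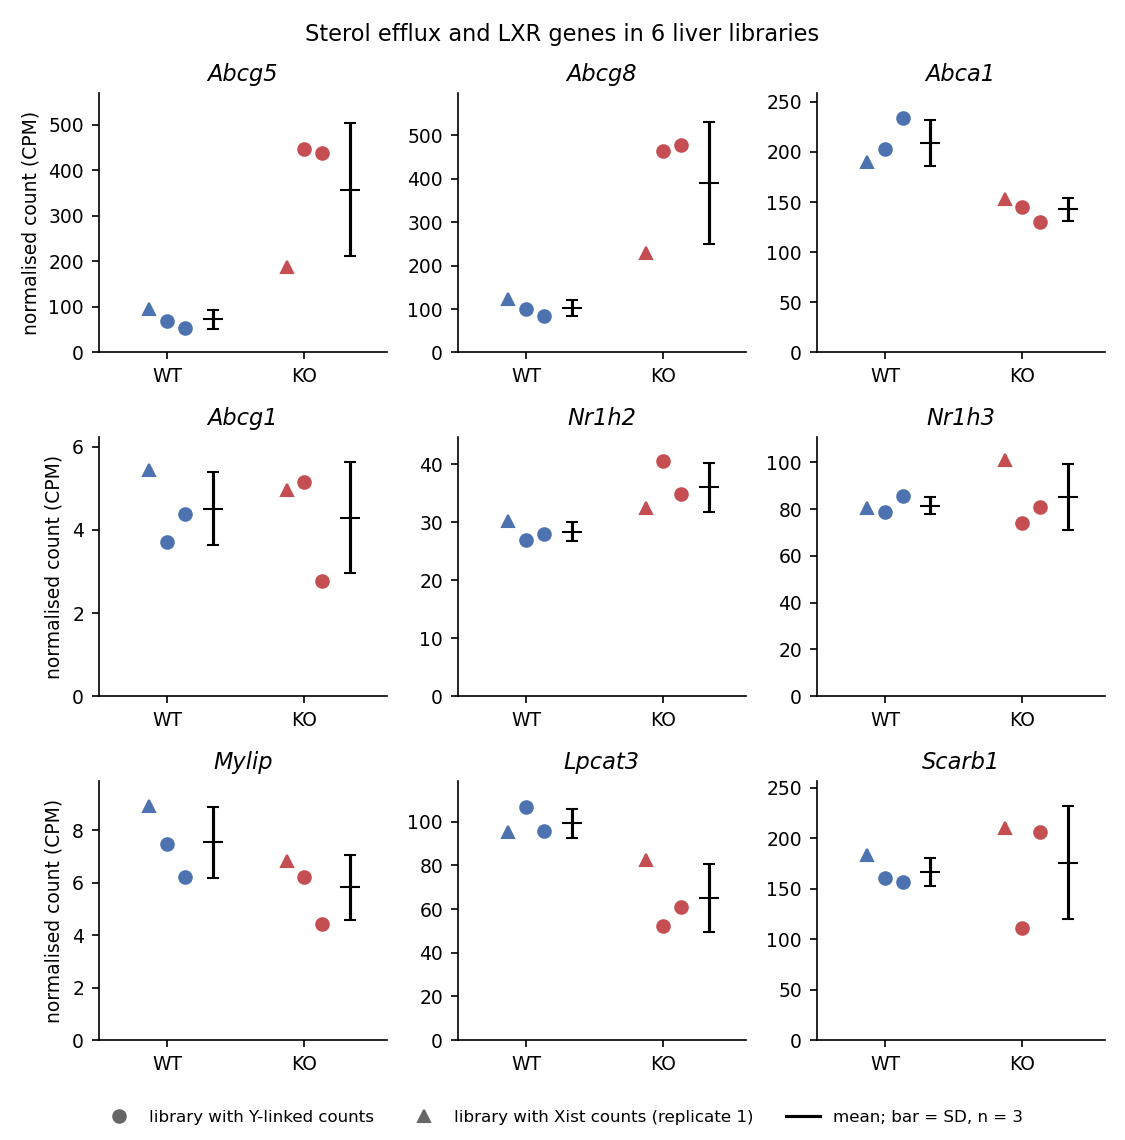
Normalised counts (CPM, linear axes from 0) of the 9 genes in the 3 WT (blue) and 3 KO (red) libraries. Triangles are the libraries with Xist counts, circles those with Y-linked counts, and the black bar is the mean with its SD (n = 3). Abcg5 and Abcg8 separate by the widest margin, and KO 1 lies between WT and the other KO libraries for both.

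Abcg5 was at 188, 446 and 437 CPM in KO 1 to 3 and at 94.9, 68.0 and 54.2 CPM in WT 1 to 3. Every KO library was above every WT library, and KO 1 was well below the other KO libraries. The mean was 357 ± 146 CPM in KO and 72.4 ± 20.7 CPM in WT (SD, n = 3 each), a log2 fold change of 2.30 ± 0.386 (SE; edgeR adjusted p = 0.0334), or 4.93-fold.

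Abcg8 was at 229, 463 and 478 CPM in KO 1 to 3 and at 122, 101 and 84.2 CPM in WT 1 to 3. The order of the libraries was nearly that of Abcg5, again with no overlap and with KO 1 in between. The mean was 389.9 ± 139.8 CPM in KO and 103 ± 19.0 CPM in WT (SD, n = 3 each), a log2 fold change of 1.93 ± 0.318 (SE; edgeR adjusted p = 0.0329), or 3.80-fold. Of the 14539 genes tested, 336, or 2.31%, had a log2 fold change at least as high.

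Both calls ended when KO 2, KO 3, WT 1, WT 2 or WT 3 was left out, with edgeR adjusted p-values from 0.0576 to 0.184 for Abcg5 and from 0.0643 to 0.178 for Abcg8, while the log2 fold changes stayed between 2.11 and 2.54 and between 1.76 and 2.07. Over all genes, the fits without KO 2, KO 3, WT 1, WT 2 and WT 3 called 86, 35, 262, 6 and 20, against 490 with all 6 libraries. Without KO 1 the edgeR adjusted p-values of Abcg5 and Abcg8 were 0.00197 and 0.00145. Their log2 fold changes were 2.60 and 2.19, in a fit that called 30.2% of all genes.

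The values are given for each kind of library. In the 4 Y-positive libraries, mean Abcg5 was 7.22-fold and mean Abcg8 5.07-fold higher in KO. In the Xist-positive pair the ratios were 1.98 and 1.87. The fitted interaction of group and library kind was -1.86 ± 0.284 on the log2 scale for Abcg5 (SE; edgeR adjusted p = 0.0358) and -1.44 ± 0.271 for Abcg8 (adjusted p = 0.061), against a background of 2.90% of genes called. The Xist-positive arm has 1 library a group and no spread of its own, so the fit assumes that these libraries vary like the others and cannot tell the kind of library from KO 1 or WT 1 alone. KO 1 also kept the most Stk11, at 22.1 CPM against 14.4 and 11.4 CPM, so the kind of library and the remaining Stk11 cannot be told apart among the KO libraries. WT 1 had the highest Abcg5 and Abcg8 of the WT libraries.

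Abcg5 and Abcg8 kept close step with each other. Their log2 CPM values had a Pearson correlation of 0.999 over the 6 libraries, a description of libraries that share the group difference. The count of Abcg5 was 0.823, 0.962 and 0.914 times that of Abcg8 in KO 1 to 3 and 0.776, 0.672 and 0.643 times in WT 1 to 3, so the ratio was higher in every KO library. The log2 CPM difference of Abcg5 minus Abcg8 was -0.16 ± 0.115 in KO and -0.53 ± 0.142 in WT (SD, n = 3 each), with no overlap and a 2-sided exact permutation p of 0.1, the smallest that 3 against 3 allows. The annotated exons of Abcg5 and Abcg8 overlap by 82 nt, which is 3.02% of the exon length of Abcg5 and 2.19% of that of Abcg8, and whether strand was used in counting is not given in the sources used here. Among 730 pairs of tested genes that start within 1000 nt of each other on opposite strands and face apart, a description made after the values were seen, both partners were called in the same direction in 5 pairs, or 0.685%, and Abcg5 with Abcg8 was one of them.

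The 5 protein-coding genes whose log2 CPM followed the mean of Abcg5 and Abcg8 most closely over the 6 libraries were Adssl1, Gemin7, Smim11, Sds and Fuom, with Pearson correlations from 0.997 to 0.9992. Of 11354 protein-coding genes compared, 541 reached a correlation of 0.95, over libraries that share the group difference. Sds, the serine dehydratase of amino acid breakdown, was at 264, 627 and 712 CPM in KO and 126, 76.0 and 67.0 CPM in WT, with KO 1 in between as for Abcg5. It rose by 2.57 ± 0.436 on the log2 scale (SE; edgeR adjusted p = 0.0346). Adssl1, an adenylosuccinate synthase, rose from 17.0 ± 2.20 to 40.7 ± 9.78 CPM (SD, n = 3; edgeR adjusted p = 0.0325) and Fuom, a fucose mutarotase, from 10.8 ± 1.05 to 28.5 ± 8.07 CPM (adjusted p = 0.0325). Gemin7 and Smim11 did not pass the threshold (adjusted p = 0.0972 and 0.104). The calls of Sds, Adssl1 and Fuom ended when any library but KO 1 was left out.

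The other cholesterol exporters were not called higher. Abca1 (ENSMUSG00000015243.4, chromosome 4, 53030787 to 53159895, minus strand) was at 153, 145 and 130.1 CPM in KO 1 to 3 and at 190.1, 203 and 234 CPM in WT 1 to 3. Every KO library was below every WT library. The log2 fold change was -0.55 ± 0.151 (SE), with a 95% interval from -0.91 to -0.19, and did not pass the threshold (edgeR adjusted p = 0.0854). It passed in DESeq2 (adjusted p = 0.0107), in edgeR without KO 1 (adjusted p = 0.0262) and in the 4 Y-positive libraries (-0.67, edgeR adjusted p = 0.0203), where 33.3% of all genes were called.

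Abcg1 (ENSMUSG00000024030.7, chromosome 17, 31057675 to 31117988, plus strand) was low, at 4.96, 5.15 and 2.76 CPM in KO 1 to 3 and 5.44, 3.70 and 4.38 CPM in WT 1 to 3, with between 130 and 289 counts per library. The groups overlapped in part, with KO 3 the lowest and WT 1 the highest. The log2 fold change was -0.07 ± 0.288 (SE; edgeR adjusted p = 0.894) and its 95% interval ran from -0.75 to 0.61.

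Neither receptor passed the threshold. Nr1h3 (ENSMUSG00000002108.10, chromosome 2, 91184061 to 91202834, minus strand), the LXR that dominates in hepatocytes, was at 101, 74.0 and 80.8 CPM in KO 1 to 3 and 80.3, 78.8 and 85.4 CPM in WT 1 to 3. The groups overlapped, the log2 fold change was 0.07 ± 0.151 (SE; edgeR adjusted p = 0.808), and the 95% interval ran from -0.29 to 0.42. Nr1h2 (ENSMUSG00000060601.13, chromosome 7, 44549616 to 44553951, minus strand), the broadly expressed LXR, was at 32.4, 40.6 and 34.9 CPM in KO and 30.2, 26.9 and 28.0 CPM in WT. All KO libraries were above all WT libraries by a narrow gap. Its log2 fold change of 0.34 ± 0.127 (SE), with a 95% interval from 0.04 to 0.64, did not pass the threshold (edgeR adjusted p = 0.151). It passed without KO 1 (adjusted p = 0.0412) and in the 4 Y-positive libraries (0.45, edgeR adjusted p = 0.0318).

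Mylip and Lpcat3, the remaining LXR targets, had lower means in KO without passing the threshold. Mylip (ENSMUSG00000038175.10, chromosome 13, 45389742 to 45412022, plus strand) was at 6.83, 6.21 and 4.44 CPM in KO 1 to 3 and 8.91, 7.48 and 6.20 CPM in WT 1 to 3. The ranges overlapped, and the log2 fold change was -0.37 ± 0.223 (SE; edgeR adjusted p = 0.332; 95% interval -0.90 to 0.16). Lpcat3 (ENSMUSG00000004270.13, chromosome 6, 124663027 to 124704418, plus strand) was at 82.6, 52.2 and 60.8 CPM in KO and 95.2, 107 and 96.0 CPM in WT.

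No Lpcat3 value of KO reached the lowest of WT. The log2 fold change of Lpcat3 was -0.61 ± 0.189 (SE; 95% interval -1.06 to -0.16) and did not pass the threshold (edgeR adjusted p = 0.108). It passed in DESeq2 (adjusted p = 0.038), in edgeR without KO 1 (adjusted p = 0.00689) and in the 4 Y-positive libraries (-0.85, edgeR adjusted p = 0.00764). Emg1, on the opposite strand, overlaps 334 nt or 10.22% of the Lpcat3 exons, so some of these counts could belong to Emg1 if strand was not used.

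Scarb1 (ENSMUSG00000037936.15, chromosome 5, 125277087 to 125341094, minus strand) was at 210.0, 111 and 206 CPM in KO 1 to 3 and 183, 161 and 157 CPM in WT 1 to 3. KO 2 was the lowest of all 6 libraries and KO 1 and KO 3 were the highest, so the groups overlapped. The log2 fold change was 0.07 ± 0.257 (SE; edgeR adjusted p = 0.876; 95% interval -0.54 to 0.68).

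**Figure D2:**
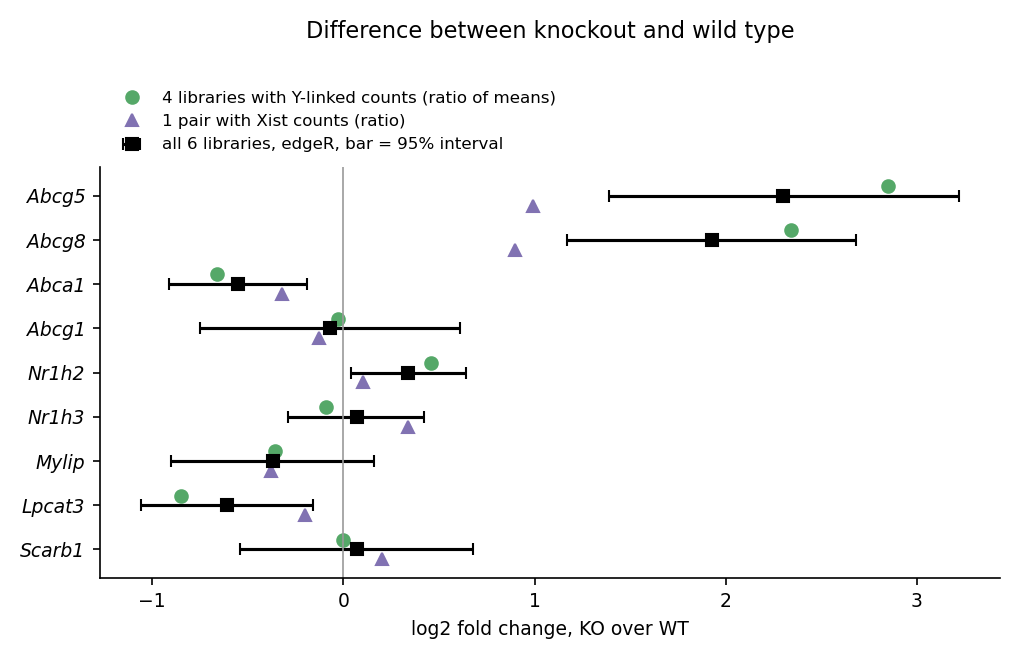
Log2 fold change of KO over WT for the 9 genes. Squares are the edgeR estimates over all 6 libraries with 95% intervals, circles the log2 ratio of mean CPM in the 4 Y-positive libraries, and triangles the ratio in the Xist-positive pair. The intervals of Abcg5 and Abcg8 begin at 1.39 and 1.17, above the highest upper limit of the other 7 genes, 0.68 for Scarb1.

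Whether Abcg5 and Abcg8 moved apart from the other 7 genes was examined within each library, as the log2 CPM of Abcg5 or Abcg8 minus that of each other gene, which library scaling hardly affects. For all 14 pairs every KO library was above every WT library. The pairs are built from the same values as the fold changes above, and Abcg5 and Abcg8 moved in step. They describe that group difference again and are not 14 separate checks. The KO mean exceeded the WT mean by 1.90 for Abcg5 over Nr1h2, the least of the Abcg5 pairs, and by 2.87 for Abcg5 over Lpcat3, the most. For Abcg8 the difference ran from 1.53 over Nr1h2 to 2.50 over Lpcat3.

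Abcg5 over Lpcat3 was 1.19, 3.09 and 2.84 in KO 1 to 3 and -0.01, -0.66 and -0.83 in WT 1 to 3 on this log2 scale. Abcg5 thus had more counts than Lpcat3 in all KO libraries and no more in any WT library. The 2-sided exact permutation p was 0.1 for each of the 14 pairs, the smallest that 3 against 3 allows, and 0.1 after Benjamini-Hochberg adjustment over the 14 pairs, so this design cannot pass 0.05. KO 1 was the KO library nearest to WT in all 14 pairs.

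**Figure D3:**
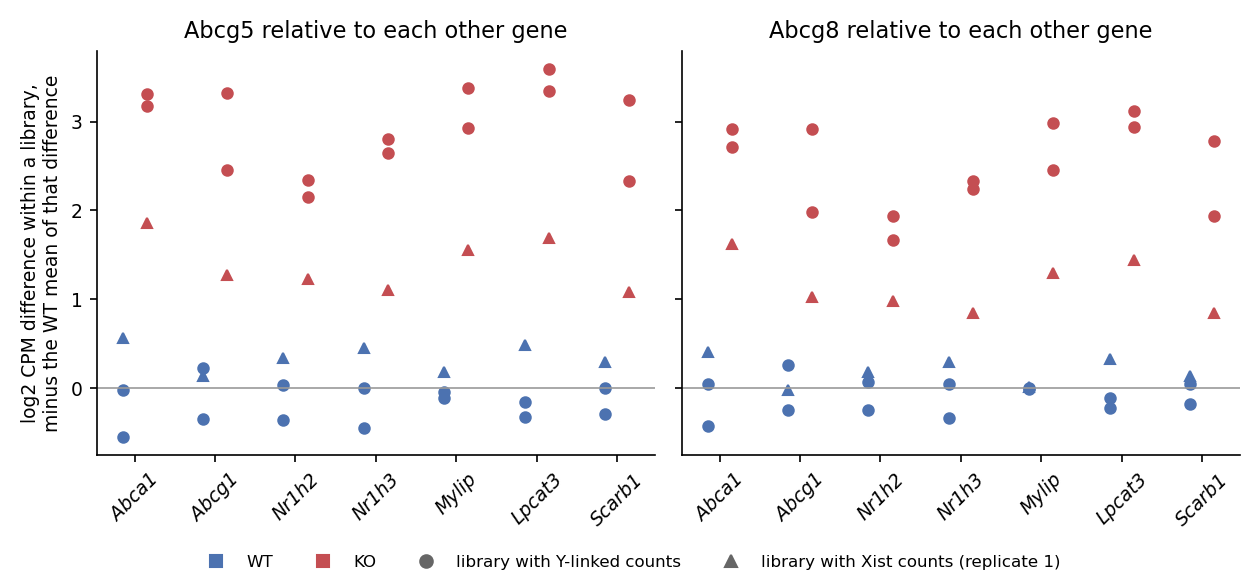
Log2 CPM of Abcg5 (left) or Abcg8 (right) minus that of each other gene in the same library, shown relative to the WT mean of that difference. Blue is WT and red KO, and triangles are the libraries with Xist counts. The KO points lie above the WT points for all 14 pairs, with KO 1 the lowest KO point.

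Levels of different genes were compared as CPM per kilobase of annotated exon. In WT the order of means was Nr1h3 (32.4 ± 1.39), Lpcat3 (30.5 ± 2.08), Abcg8 (27.4 ± 5.08), Abcg5 (26.7 ± 7.63), Abca1 (20.2, range 18.3 to 22.6), Scarb1 (19.6 ± 1.64), Nr1h2 (8.46 ± 0.503), Mylip (2.33 ± 0.419) and Abcg1 (0.618 ± 0.12; SD, n = 3 each). Neighbours from Nr1h3 down to Scarb1 had overlapping ranges, and the steps below Scarb1 did not overlap. In KO Abcg5 (132 ± 53.9) and Abcg8 (104 ± 37.3) came first and their ranges overlapped, followed with a gap by Nr1h3 (33.9 ± 5.65). Scarb1 (20.7 ± 6.57) and Lpcat3 (20.0 ± 4.8) overlapped, and the range of Scarb1 also reached that of Abca1 (13.8 ± 1.11), the next in order. Nr1h2 (10.7 ± 1.25), Mylip (1.80 ± 0.384) and Abcg1 (0.588 ± 0.182) followed, each below the range of the gene before it. Abcg5 and Abcg8 thus stood among the other abundant genes of the group in WT liver and above all of them in KO liver.

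The wider LXR programme was read from lists of related genes. Of 20 other LXR targets, 0 passed the threshold in edgeR, 4 had an unadjusted p-value under 0.05, and 9 had a positive and 11 a negative log2 fold change. DESeq2 called 2 higher and 1 lower, and limma voom called 0. The median was -0.16, beside 0.01 for all genes tested. In the 4 Y-positive libraries, where 33.3% of all genes were called, edgeR called 3 of the 20 higher and 4 lower. Srebf1, which encodes the LXR-driven master regulator of fatty acid synthesis, was at 187, 86.6 and 169 CPM in KO 1 to 3 and 232, 132 and 139.8 CPM in WT 1 to 3, with partial overlap and a log2 fold change of -0.19 ± 0.344 (SE; edgeR adjusted p = 0.758).

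Scd1, the stearoyl-CoA desaturase, ranged from 1419 to 11978 CPM in KO and from 4530 to 7773 CPM in WT. The log2 fold changes of Scd1 and of Fasn, the fatty acid synthase, were -0.16 ± 0.704 and -0.15 ± 0.416 (SE; edgeR adjusted p = 0.901 and 0.841), and that of Srebf1, Scd1 or Fasn changed sign when single libraries were left out. Cyp7a1, the rate-limiting enzyme of bile acid synthesis and an LXR target in mice, was at 80.5, 3.51 and 11.7 CPM in KO and 61.7 to 83.6 CPM in WT (edgeR adjusted p = 0.487). The genes of this list nearest to the threshold were Ttc39b, higher in every KO library at 0.92 ± 0.207, and Pltp, the phospholipid transfer protein, lower in every KO library at -1.44 ± 0.481 on the log2 scale (SE; edgeR adjusted p = 0.0605 and 0.125). Rnf145 was as near as Pltp, at 1.01 ± 0.337 on the log2 scale (SE; edgeR adjusted p = 0.125). Its values were 25.1, 34.3 and 38.6 CPM in KO 1 to 3 and 25.3, 12.1 and 11.4 CPM in WT 1 to 3. KO 1 lay just below WT 1, so the groups overlapped. Ttc39b passed with scaling by library size alone (adjusted p = 0.0477), without a filter (0.0478), with a term for the library kind (0.0482), in the 4 Y-positive libraries (0.0438), without KO 1 (0.0251) or KO 2 (0.04), and in DESeq2 (0.00275). Pltp passed as lower with the library term (edgeR adjusted p = 0.0385), in the 4 Y-positive libraries (0.00559), without KO 1 (0.00491) and in DESeq2 (0.0121). Cyp7a1 passed as lower in the 4 Y-positive libraries (-3.32, edgeR adjusted p = 0.00913) and without KO 1 (-3.23, adjusted p = 0.00832).

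**Figure D4:**
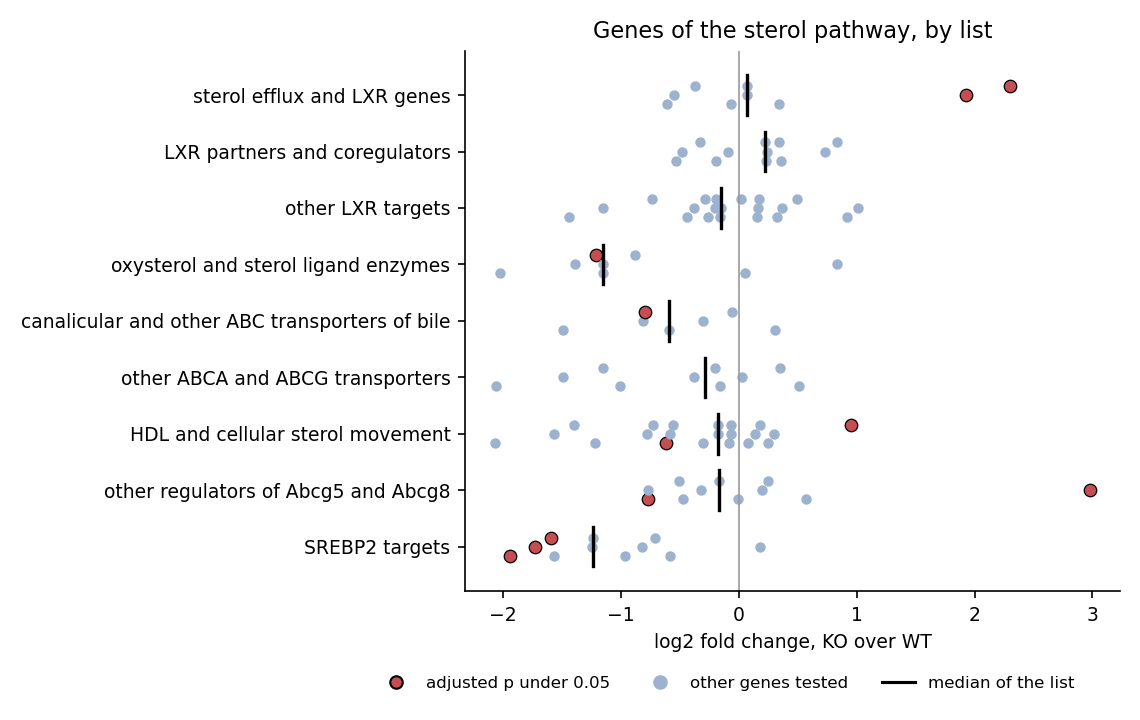
Log2 fold change of KO over WT for the 9 genes (top) and for the tested genes of 8 lists of the sterol pathway, with red points for an adjusted p-value under 0.05 in edgeR and a black line at each median. Abcg5 and Abcg8 stand at the right of their row, and the median of the 20 other LXR targets is -0.16.

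Among 12 partners and coregulators of LXR, 0 passed the threshold in edgeR, 3 had an unadjusted p-value under 0.05, limma voom called 0, and DESeq2 called 1 higher and 1 lower. Rxra, the main partner of LXR in liver, was at 292 ± 76.0 CPM in KO and 421 ± 12.3 CPM in WT (SD, n = 3; edgeR adjusted p = 0.183), with every KO library below every WT library. The coactivator Ncoa3 and the arginine methyltransferase Prmt3 came closest, at -0.48 ± 0.117 and 0.83 ± 0.265 on the log2 scale (SE; edgeR adjusted p = 0.0696 and 0.115).

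Of 8 tested enzymes that make or use oxysterols and other sterol ligands, 1 was called lower and 0 higher, 2 had an unadjusted p-value under 0.05, and DESeq2 called 2 lower. Their median log2 fold change was -1.15. The called gene was Cyp27a1, which makes 27-hydroxycholesterol, and it fell from 472 ± 48 to 204 ± 21 CPM (SD, n = 3; edgeR adjusted p = 0.0226). Among 7 transporters of the bile canaliculus Atp8b1, a phospholipid flippase, was the 1 called, lower at 32.7 ± 3.69 against 57.0 ± 3.09 CPM (edgeR adjusted p = 0.0319), and 6 of the 7 log2 fold changes were negative, with a median of -0.59. An unadjusted p-value under 0.05 was found for 4 of the 7, and DESeq2 called 2 lower.

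None of 10 tested other ABCA and ABCG transporters passed the threshold in edgeR or limma voom, 3 had an unadjusted p-value under 0.05, and DESeq2 called 1 lower. Abcg2, the family member that exports urate and drugs, was at 42.5, 32.0 and 37.9 CPM in KO 1 to 3 and 36.3, 137 and 141 CPM in WT 1 to 3. WT 1 was as low as the KO libraries, and the groups overlapped. Abca8a was at 79.6, 12.1 and 19.2 CPM in KO and 127, 174 and 162 CPM in WT. The log2 fold changes of Abcg2 and Abca8a were -1.49 ± 0.476 and -2.06 ± 0.676 (SE; edgeR adjusted p = 0.115 and 0.12).

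In a list of 21 tested genes of HDL and of sterol movement in cells, 1 was called higher and 1 lower, and the median log2 fold change was -0.18. An unadjusted p-value under 0.05 was found for 9 of them, and DESeq2 called 1 higher and 7 lower. Gramd1c, which encodes a sterol transfer protein of the Aster family, rose from 35.1 ± 5.32 to 67.7 ± 9.53 CPM (SD, n = 3; edgeR adjusted p = 0.0383). Nceh1, a cholesteryl ester hydrolase, fell from 40.7 ± 0.747 to 26.5 ± 2.98 CPM (edgeR adjusted p = 0.0467), a call that ended with scaling by library size alone and with either other filter.

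Genes listed as other possible regulators of Abcg5 and Abcg8 were mixed, with 1 of 11 called higher, 1 lower, 5 at an unadjusted p-value under 0.05 and a median of -0.17. Their part in the values of Abcg5 and Abcg8 was not tested. DESeq2 called 1 higher and 2 lower. Ppargc1a, a coactivator induced by fasting, rose from 7.44 ± 4.27 to 58.8 ± 29.5 CPM (SD, n = 3; edgeR adjusted p = 0.0446), a call that ended with a robust dispersion (adjusted p = 0.0561). Nr0b2, the repressor SHP, fell from 29.2 ± 1.71 to 17.1 ± 2.12 CPM (edgeR adjusted p = 0.0347). Foxo1, a factor restrained by insulin signalling, was at 25.6, 58.6 and 49.3 CPM in KO 1 to 3 and 28.9 to 30.9 CPM in WT. KO 1 was below all WT libraries and KO 2 and KO 3 were above them (log2 fold change 0.57 ± 0.284, SE; edgeR adjusted p = 0.253). Foxo1 passed as higher in the 4 Y-positive libraries (0.86, edgeR adjusted p = 0.00589) and without KO 1 (0.84, edgeR adjusted p = 0.00468). Of the 11 genes, edgeR called 2 higher and 3 lower in the 4 Y-positive libraries, where 33.3% of all genes were called. Gata4 and Gata6, the GATA factors of this list, were not called. Gata4 was lower in every KO library, at -0.47 ± 0.133 on the log2 scale (SE; edgeR adjusted p = 0.0908). Gata6 was at -0.01 ± 0.226 (SE; edgeR adjusted p = 0.99), with overlap of the groups.

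Targets of SREBP2, the factor that drives cholesterol synthesis and uptake when sterols are scarce, had the lowest median of the 8 lists, -1.24, with 3 of 11 called lower and 0 higher, 10 at an unadjusted p-value under 0.05, and 9 called lower by DESeq2. Hmgcs1, Sqle and Idi1, enzymes of cholesterol synthesis, fell by 1.94, 1.73 and 1.59 on the log2 scale (edgeR adjusted p = 0.0431, 0.0226 and 0.0331). Over the 8 lists 9 of 96 tested genes were called, 2 higher and 7 lower, beside 3.37% of all genes tested called, 2.15% higher and 1.22% lower. Each of these 9 calls ended when KO 2, KO 3, WT 2 or WT 3 was left out, and the number called without single libraries ran from 0 to 44, the highest without KO 1.

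All 8 endothelial markers had negative log2 fold changes, with 0 called in edgeR or limma voom, 7 at an unadjusted p-value under 0.05 and 4 called lower by DESeq2, and their summed level was 113 to 176 CPM in KO and 216 to 290 CPM in WT. The 11 markers of Kupffer cells and macrophages summed to 141 to 313 CPM in KO and 203 to 280 CPM in WT, the 6 stellate markers to 106 to 220 CPM and 172 to 364 CPM, and the 5 bile duct markers to 24.8 to 74.2 CPM and 39.5 to 72.7 CPM, with 0 called in each of the 3 lists by edgeR, limma voom or DESeq2 and 0 at an unadjusted p-value under 0.05. Most of the bile duct sum was Spp1, at 20.5 to 67.7 CPM in KO and 34.9 to 65.5 CPM in WT. Dcn made up much of the stellate sum, at 69.2 to 107 CPM in KO and 90 to 194 CPM in WT. The 8 hepatocyte markers summed to 27832 to 76168 CPM in KO and 88059 to 123127 CPM in WT, and Tat, a tyrosine aminotransferase, was the 1 called, as higher. Alb, with the highest mean of the 8, was at 26159 ± 21422 CPM in KO and 74222 ± 19628 CPM in WT (SD, n = 3). Log2 fold changes were negative for 5 of the 8 and positive for 3, Hnf4a, Cps1 and Tat, each higher in every KO library. Of these 8, 4 had an unadjusted p-value under 0.05, and DESeq2 called 2 higher and 3 lower. In the 4 Y-positive libraries, where 33.3% of all genes were called, edgeR called 6 endothelial, 2 stellate and 1 bile duct markers lower. It called 1 Kupffer cell and macrophage marker higher and 5 lower there, and 1 hepatocyte marker higher and 4 lower. No marker was at 0 in all libraries. Their part in the values of Abca1, Lpcat3, Abcg1 and Mylip was not tested.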

How the data were processed

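Poly(A) RNA was sequenced from 6 livers as paired reads of 76 nt. The authors deposited expected counts per gene, and the submitters' processing notes name bcl2fastq, cutadapt 1.18, STAR 2.7.0f, RSEM 1.3.1 and the build mm9. All 55450 versioned gene identifiers are those of GENCODE M21, an annotation of GRCm38, so positions and exon lengths were taken from there. Parameters and the use of strand are not given in the sources used here. Groups and replicate numbers came from the titles, and 0 columns were left without a sample. Total counts ran from 47659122 to 56147667.

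Counts were rounded, filtered with filterByExpr (14539 genes left), scaled by TMM and tested for group with edgeR 4.0.16 (quasi-likelihood, no covariate) under R 4.3.3, with Benjamini-Hochberg adjustment over all genes and a threshold of 0.05. SE is the log2 fold change divided by the root of F. Log2 CPM used a prior count of 2, and ratios within a kind of library an offset of 0.1 CPM. The interaction fit had 2 residual degrees of freedom. The script was tested on simulated data. DESeq2 1.42.0, limma 3.58.1 (voom), other scalings and filters, a term for the library kind, a block by replicate number and leaving out each library were the alternatives.

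The 9 genes and the 8 lists were chosen with earlier results of these data known. Named are Stk11, the 9 genes, Srebf1, Scd1, Fasn, Cyp7a1, Rxra and Foxo1, every list gene past the threshold or else the 2 nearest to it, and the 5 protein-coding genes with a mean CPM of at least 1 most like Abcg5 and Abcg8. A further gene fixed in this rule is not reported here. Cell type markers, Emg1, Gata4, Gata6, Rnf145 and the oxysterol enzymes that were not called, other than Cyp7a1, were named outside this rule. Promoter windows are from RefSeq on GRCm38.p6. The mice are separate animals per the labels.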

Additional observations from a re-analysis of the deposited data

Results flagged for a closer look

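The difference between KO and WT in Abcg5 was fitted as lower for the Xist-positive pair than for the 4 Y-positive libraries, by -1.86 on the log2 scale (95% interval -2.57 to -1.16; edgeR adjusted p = 0.0358). The log2 ratio was 0.99 for the Xist-positive pair and 2.85 for the others. The first of these rests on 1 library against 1 with no spread of its own, so the fit assumes that these libraries vary like the others, and the kind of library cannot be told from KO 1 or WT 1 alone. Abcg8 had a difference of -1.44 with a 95% interval from -2.11 to -0.77, which did not pass the threshold (adjusted p = 0.061).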

How the results depend on the processing

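Abcg5 and Abcg8 were higher in KO under all 16 alternatives, at log2 fold changes from 2.11 to 2.85 and from 1.76 to 2.34, and each passed the threshold in 10 of the 16. The number of the 9 genes called was 2 under either other scaling, either other filter, a robust dispersion, limma voom and a term for the library kind. It was 4 in DESeq2, 5 in the Y-positive libraries, 0 with the replicate number as a block, and 0 to 5 when 1 library was left out. Over all genes, the 490 calls became 771 without a filter, 105 with the replicate block, 1504 with a term for the library kind, 4847 in the Y-positive libraries, 2252 in DESeq2, and 6 to 4473 without single libraries (6 without WT 2, 4473 without KO 1). Scaling by library size alone gave 380 higher and 131 lower calls in place of 313 and 177. Of the 96 genes of the lists, 9 were called, against 1 with the replicate block, 19 with the library term, 47 in the Y-positive libraries, 28 in DESeq2 and 0 to 44 without single libraries. The cause of these shifts was not tested. With the block, Abcg5 and Abcg8 had adjusted p-values of 0.0881 and 0.0859 in edgeR. The deviations of same-numbered libraries correlated at 0.178, 0.044 and 0.068 for numbers 1 to 3, so the numbers were not taken to pair the mice, and KO 2 and KO 3 each correlated best with the other number in WT. Signs changed only among genes that were not called. Nr1h3 was at -0.09 and Scarb1 at -0.01 in the Y-positive libraries. Without single libraries the range was -0.08 to 0.17 for Nr1h3, -0.08 to 0.32 for Scarb1, -0.21 to 0.17 for Abcg1, -0.55 to 0.24 for Fasn, -1.23 to 0.31 for Scd1 and -0.40 to 0.11 for Srebf1. The count of genes with a called interaction among the 9 stayed at 1 under both alternatives tried. All 14 pair differences kept their sign with a prior count of 0.5 and without each library. Abcg1, with 130 to 289 counts per library, and Mylip, with 209 to 452, are the least deeply counted of the 9 genes.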
